A study of Mus musculus with 14 samples.

Results

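The H3K27ac regions described here carried an acetylation island in both knockout libraries and in neither wild-type library of lineage-depleted mouse bone marrow progenitors. Islands of the 4 H3K27ac libraries were merged where they shared at least 1 bp, which gave 34766 regions. Of these, 1800 (5.18%) met the rule and are called KO-only below. Without WT2 the rule would have kept 2944 regions and without KO2 4292, against 2197 without WT1 and 2575 without KO1. With only islands at or above the median reads per kb of their library it gave 646 regions, which met 114 of the 1800 (6.33%). Another 3226 regions carried an island in both wild-type libraries and neither knockout library (WT-only), and 18820 carried one in all 4 libraries. These regions were chosen by the presence and absence of H3K27ac islands themselves, so all H3K27ac values of these regions are given as a description, with no test against wild type.

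All libraries came from Lin- bone marrow cells (HSPCs) of C57BL/6 mice, labelled UTX WT (Utx +/+) or UTX KO (Utx-/-). The labels do not state how the gene was removed, the sex or age of the mice, whether animals were pooled, or whether numbered libraries came from separate animals. P-values therefore measure the spread between these libraries, which may be technical. H3K27ac (Diagenode antibody) and H3K27me3 (Abcam antibody) had 2 WT and 2 KO libraries each, UTX (Bethyl antibody) had 2 WT libraries, and 1 IgG precipitation from WT cells gave the background. The label of that IgG names a BCOR precipitation, and the IgG whose label names UTX was not used here. The deposited values were reads per island. They are given here as rpm, reads scaled to 1000000 reads in the islands of the same library, and replicates are written WT1, WT2, KO1 and KO2.

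UTX, encoded by Kdm6a, removes methyl groups from lysine 27 of histone H3 and is also a subunit of the MLL3 and MLL4 complexes that act at enhancers. Trimethylation of that lysine is laid down by Polycomb repressive complex PRC2 and marks silent developmental and lineage genes. Acetylation of the same residue, by p300 and CBP, marks active promoters and enhancers and cannot occupy a residue that is already trimethylated.

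The H3K27ac libraries held between 9330823 (WT1) and 15256696 (WT2) reads in islands, the H3K27me3 libraries between 2347442 and 2743508, the UTX libraries 816567 and 1834418, and IgG 154029. The Kdm6a gene itself carried H3K27ac islands with 1840, 1562, 2674 and 2059 reads in WT1, WT2, KO1 and KO2, so these marks do not check the deletion. Of 23 stem and progenitor genes, 20, 20, 20 and 18 carried acetylation at a gene end. The T cell genes Cd3e, Cd4 and Cd8a, the neutrophil surface gene Ly6g and the mesenchymal gene Col1a1 had no island there in any library. B cell and erythroid marker genes differed between the genotypes, as given below beside the results. In bulk cells, more cells that carry a mark and more of the mark per cell cannot be told apart.

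The absence of an island is not the absence of acetylation. KO levels applied to the depth of each WT library would have given a median of 94.1 reads in WT1 and 153.9 in WT2. For all 1800 regions this was above the lowest read number of a WT island of like width (within 20%), a low bar set by the weakest such island. It was above the median of such islands for 13.6% of the regions in WT1 and 34.3% in WT2. The threshold itself can be seen at the boundary. The weakest KO-only regions lay near Gm6721 (2.37 and 3.42 rpm in KO1 and KO2), Gramd3 (2.98 and 3.69 rpm) and Jcad (2.98 and 4.05 rpm). A further 1465 regions had islands in both KO libraries and in 1 WT library, 376 in WT1 and 1089 in WT2. Those with the fewest WT reads lay near Sp4 (24 reads in WT1, 8.26 and 4.59 rpm in KO), Ssc5d (24 reads in WT1, 3.79 and 5.30 rpm in KO) and Stk3 (26 reads in WT1, 18.5 and 23.0 rpm in KO).

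KO-only regions with an annotated start of a listed lineage gene are shown first by sequence, because the factors that act on these promoters are well known. RefSeq sequences of build GRCm38.p6, from 250 bases before the start to 50 after it, are printed 5′ to 3′ on the gene's strand. Capitals mark matches on either strand to the ETS motif AGGAAGT, the GATA motif AGATAA, the RUNX motif TGTGGT, the C/EBP motif TTGCNNAA, the AP-1 motif TGANTCA and the E-box CAGCTG. Positions below count from the start as base 0.
Pax5 (chr4:44710645-44710944, minus strand): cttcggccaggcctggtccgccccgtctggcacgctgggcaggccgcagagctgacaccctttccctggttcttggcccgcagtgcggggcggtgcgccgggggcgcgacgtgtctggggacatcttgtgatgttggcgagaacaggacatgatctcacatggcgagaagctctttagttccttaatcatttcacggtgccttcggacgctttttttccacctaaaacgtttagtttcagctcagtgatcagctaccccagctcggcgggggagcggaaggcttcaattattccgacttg
Rag1 (chr2:101649483-101649782, minus strand): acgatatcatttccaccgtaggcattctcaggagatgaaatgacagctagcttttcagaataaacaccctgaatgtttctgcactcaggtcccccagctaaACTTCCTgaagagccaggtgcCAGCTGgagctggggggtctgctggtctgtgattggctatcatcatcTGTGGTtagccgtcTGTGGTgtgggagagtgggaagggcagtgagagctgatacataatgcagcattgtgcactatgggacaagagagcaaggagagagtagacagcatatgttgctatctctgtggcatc
Bank1 (chr3:136326017-136326316, minus strand): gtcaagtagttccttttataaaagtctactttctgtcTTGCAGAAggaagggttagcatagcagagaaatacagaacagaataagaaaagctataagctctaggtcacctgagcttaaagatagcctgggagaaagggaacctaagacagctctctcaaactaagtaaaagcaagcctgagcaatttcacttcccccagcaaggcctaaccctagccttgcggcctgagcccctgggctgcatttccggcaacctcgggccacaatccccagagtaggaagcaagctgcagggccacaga
Ngp (chr9:110419558-110419857, plus strand): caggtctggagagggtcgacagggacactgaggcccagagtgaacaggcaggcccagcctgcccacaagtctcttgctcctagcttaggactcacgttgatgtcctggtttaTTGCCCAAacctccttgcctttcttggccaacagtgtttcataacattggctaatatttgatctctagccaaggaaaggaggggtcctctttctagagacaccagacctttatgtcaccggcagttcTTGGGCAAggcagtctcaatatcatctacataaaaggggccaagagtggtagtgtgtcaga
Ltf (chr9:111019042-111019341, plus strand): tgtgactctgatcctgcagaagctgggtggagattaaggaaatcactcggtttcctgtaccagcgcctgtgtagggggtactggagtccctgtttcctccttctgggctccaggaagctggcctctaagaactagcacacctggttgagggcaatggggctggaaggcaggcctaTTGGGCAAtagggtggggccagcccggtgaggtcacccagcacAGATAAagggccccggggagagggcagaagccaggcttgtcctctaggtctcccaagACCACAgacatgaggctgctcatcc
S100a9 (chr3:90695672-90695971, minus strand): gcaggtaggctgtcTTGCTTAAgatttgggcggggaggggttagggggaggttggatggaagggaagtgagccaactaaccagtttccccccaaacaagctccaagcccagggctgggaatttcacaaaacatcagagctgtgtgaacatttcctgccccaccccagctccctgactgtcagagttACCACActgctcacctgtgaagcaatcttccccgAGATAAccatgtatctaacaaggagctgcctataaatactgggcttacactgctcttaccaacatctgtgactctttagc

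Rag1, the recombinase that cuts antigen receptor genes, held an ETS match at -149, an E-box at -128 and RUNX matches at -81 and -67. Pax5, the factor that fixes B cell identity, held none of the motifs in this window, nor did the promoters of Camp and Ear6, whose starts also lay in KO-only regions. The neutrophil granule gene Ngp held C/EBP matches at -138 and -11. Ltf, which encodes lactoferrin, held a C/EBP match at -75, a GATA match at -32 and a RUNX match at 25, and S100a9, which encodes a calcium-binding protein of neutrophils, held matches at -236, -30 and -64 in that order of motifs. Bank1, an adaptor of B cell receptor signalling, held 1 C/EBP match at -213. A match describes letters and is not a measured binding site.

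In all, 132 KO-only regions (7.33%) held an annotated start, with 143 promoters of 133 genes. The RUNX motif was present in 23.8% of these promoters, against 15.0% of 21263 protein-coding promoters, 14.6% of 157 promoters in WT-only regions and 12.4% of 10912 in regions of all 4 libraries. The E-box was present in 20.3%, against 15.6% of all promoters. The GATA motif was present in 5.59% (8 promoters), against 9.65% of all promoters and 15.3% in WT-only regions. ETS (8.39% against 9.07%), C/EBP (10.5% against 10.2%) and AP-1 (6.29% against 6.99%) stood near the share of all promoters. Motifs were counted separately, so bases could count for more than 1 motif, and these shares are a description with no test. Sequence outside promoters was not used here, so the motifs of the distal regions were not read.

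KO-only regions were narrow and weak compared with regions present in all 4 libraries. Their median width was 4000 bp (25th and 75th percentiles 2800 and 6000, range 800 to 23600), against 4200 bp for WT-only regions and 7000 bp for regions in all 4 libraries. Their median level was 8.87 rpm in KO1 and 10.97 in KO2, against 29.1 and 30.0 rpm for regions in all 4 libraries. WT-only regions had like levels in WT, with medians of 10.1 rpm in WT1 and 10.9 in WT2. The KO libraries were within 2-fold of each other in 91.4% of KO-only regions, and KO2 was the higher in 71.8%.

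**Figure D1:**
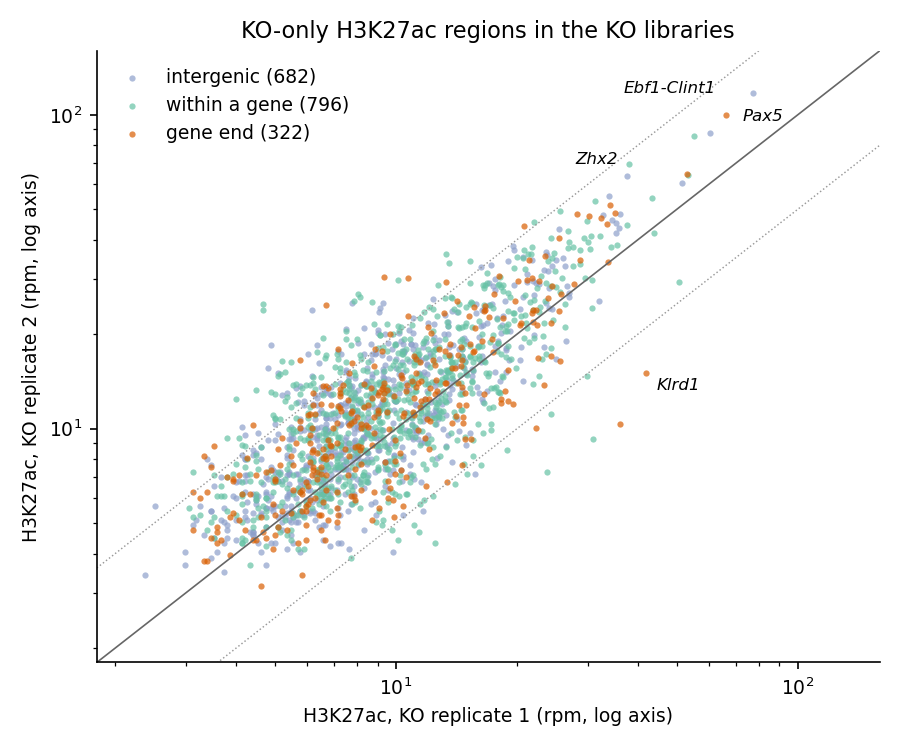
Level of each of the 1800 KO-only H3K27ac regions in KO replicate 1 (horizontal, rpm, log axis) and KO replicate 2 (vertical, rpm, log axis), coloured by position. The solid line marks equal levels and the dotted lines a 2-fold difference. The medians are 8.87 and 10.97 rpm, and Klrd1 is an example that was higher in KO1 (42.0 against 15.0 rpm).

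Most of these regions lay away from gene ends. A gene end, taken as 2 kb either side of an annotated end of a protein-coding RefSeq gene, was met by 322 (17.9%, 95% exact interval 16.1 to 19.7%). Another 796 (44.2%) lay within a gene and 682 (37.9%) were intergenic. WT-only regions had a like distribution (16.5%, 49.4% and 34.1%), whereas regions in all 4 libraries were at gene ends in 54.0%, within genes in 25.3% and intergenic in 20.7%. The median distance to the nearest gene end was 18.9 kb. The median distance to the nearest WT acetylation island was 15.8 kb, and 23.0% of the regions had one within 5 kb. They were spread over chromosomes 1 to 19 and X, from 140 on chromosome 1 to 43 on X. The 1800 regions had 1419 different nearest genes, and 660 regions (36.7%) shared theirs with another KO-only region, so regions of 1 locus are not independent. A region was linked to a gene when the gene's end was nearest or within 2 kb, a rule of position that says nothing of regulation. In all, 6.73% of 21887 protein-coding genes were linked in this way, and 10.5% without WT2 or 13.7% without KO2.

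B cell genes were linked most often among the 12 gene lists. Of 29, 10 were linked to KO-only regions (34.5%, against 6.73% of all genes), through 20 regions. These were the lineage factors Ebf1, Pax5, Bach2 and Irf4, the recombination genes Rag1 and Dntt, the interleukin 7 receptor gene Il7r, the signalling genes Blk and Bank1, and Ciita, which controls MHC class II genes. The list was chosen with the H3K27ac change at B cell genes already known, so the count is not independent evidence of it. Leaving out each H3K27ac library in turn gave 10 or 11 linked genes, but this loosens the rule and kept all 1800 regions, so the count could hardly fall.

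The region at the start of Pax5 was the second strongest of the 1800 (chromosome 4, 44699801 to 44714200, 14400 bp). It held 977 reads in KO1 and 1109 in KO2, or 66.2 and 99.7 rpm, and the nearest WT island lay 25.4 kb away. The intergenic region 11.4 kb from Il7r, the receptor that lymphoid progenitors need to grow, reached 32.8 and 48.0 rpm in KO1 and KO2, and another at the end of Il7r reached 16.6 and 23.7 rpm. Both KO libraries carried each of these regions, and KO2 was the higher in all 3.

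Bach2, a repressor that holds B cells in an immature state, had 3 KO-only regions. The one 2.81 kb from its end had 36.0 and 43.5 rpm, and the others had 12.3 and 8.72 rpm and 11.1 and 6.92 rpm. Irf4, a factor of B cell receptor editing and plasma cells, had 9.35 rpm in KO1 and 30.5 in KO2. Blk, a Src family kinase of B cells, had 12.1 and 24.4 rpm, Rag1 had 12.2 and 20.2 rpm, and Dntt, the polymerase that adds bases at receptor joints, had 7.72 and 12.6 rpm. Bank1 had 14.1 and 10.97 rpm and Ciita 7.04 and 10.1 rpm. The regions of Dntt and Ciita lay 9.33 and 6.99 kb from the nearest end of the gene. KO2 was the higher except at Bank1 and at the weaker pair of Bach2 regions.

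KO-only regions lay at and after Ebf1, the factor that starts the B cell programme with Pax5. Between 100 kb before the first annotated start of Ebf1 and the next gene, Clint1, there were 12. Of these, 8 had Ebf1 as their nearest gene, the most for any gene. The strongest of all 1800 regions lay in the gene desert after Ebf1 (chromosome 11, 45520201 to 45542000, 21800 bp), 512.1 kb from the end of Ebf1 and 309.9 kb from Clint1, which encodes an adaptor of clathrin coats. It held 1141 reads in KO1 and 1301 in KO2, or 77.3 and 117.0 rpm. Within the gene, a region 321.5 kb after the start had 25.5 and 49.5 rpm, and one at the end of the gene had 16.7 and 23.8 rpm. From the end of Ebf1 to Clint1 the WT libraries held 4 acetylation islands each and the KO libraries 11 each. Most of these KO islands lay in KO-only regions, where WT has no island by the rule, so the counts are a description. H3K27me3 islands in the same stretch numbered 3 and 4 in WT and 2 and 1 in KO.

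**Figure D2:**
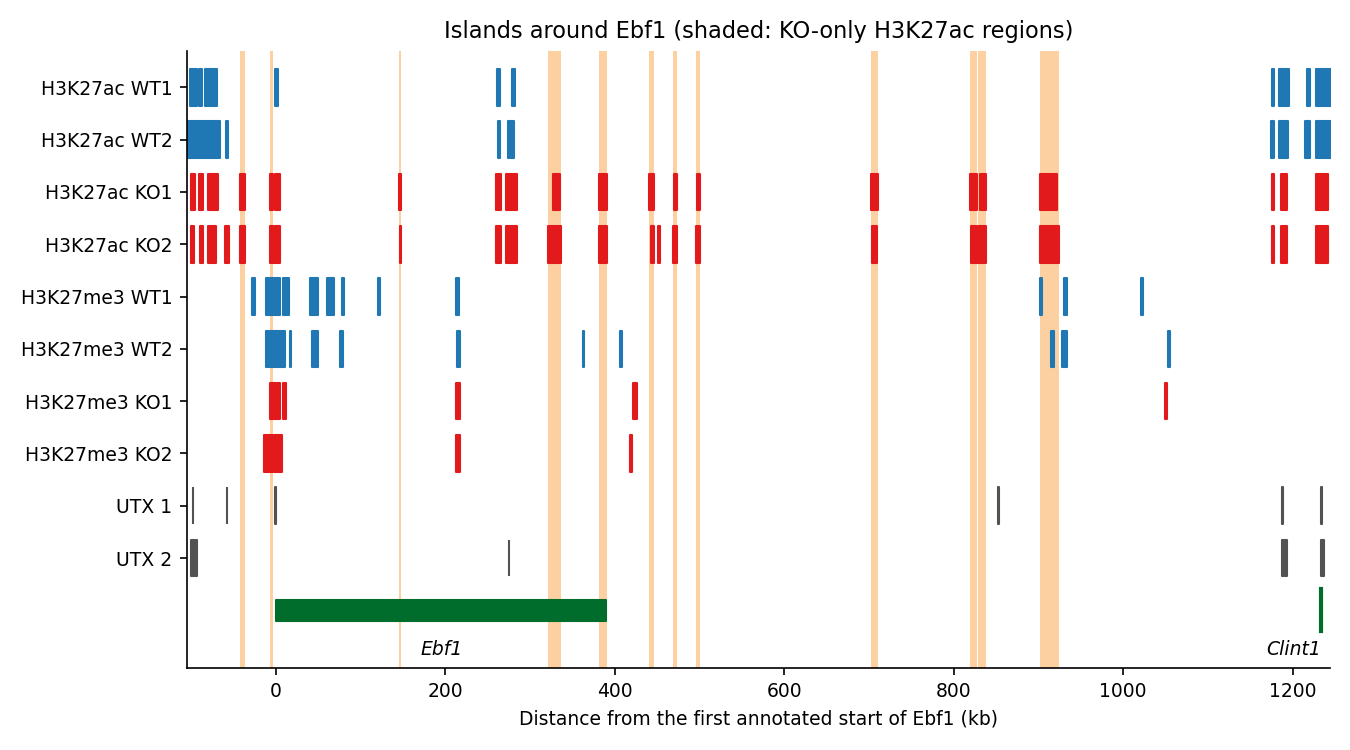
Islands of 10 libraries around Ebf1, by distance in kb from its first annotated start (horizontal), with 1 row per library. Blue bars are WT islands, red bars KO islands, dark grey bars UTX islands in WT cells, shading marks the 12 KO-only H3K27ac regions, and the green bar and tick mark Ebf1 and the start of Clint1. Between the end of Ebf1 and Clint1, 11 acetylation islands stand in each KO library against 4 in each WT library. Most of these KO islands lie in shaded regions, where WT has none by the rule.

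The islands at the ends of the 29 genes summed to 816 and 759 rpm in WT1 and WT2 and to 1591 and 2237 rpm in KO1 and KO2, and 23, 23, 27 and 27 genes were marked. These sums hold KO-only regions, such as those of Pax5, Rag1 and Bank1, whose WT value is 0 by the rule. Without the islands in KO-only regions, an alternative chosen after seeing the data, the sums were 816 and 759 rpm in WT and 1465 and 2028 rpm in KO, with 23, 23, 24 and 24 genes marked. They come from the libraries that the rule used and are a description. Cr2, a receptor of mature B cells, and Ciita were at 0 at their gene ends in all 4 libraries. Pou2f2 stood the other way, with 36.9 and 39.2 rpm in WT and 22.4 and 23.6 in KO. The groups overlapped at Rag2 (56.8 and 30.8 rpm in WT, 47.5 and 47.8 in KO) and Dntt (38.4 and 35.3 in WT, 26.8 and 41.3 in KO), among others. Spib had 71.7 rpm in KO1 and 271.1 in KO2. The share of B cell precursors in the samples was not measured, and its part in the KO-only regions was not tested.

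Of 42 granulocyte and monocyte genes, 5 were linked (11.9%). Ngp had 22.4 rpm in KO1 and 21.4 in KO2, S100a9 had 23.3 and 13.8, Ltf had 16.3 and 18.97, and Camp, which encodes cathelicidin, had 11.9 and 10.7. The annotated starts of these 4 genes lay inside the regions. The fifth link was a region 89.6 kb from Csf3r, the G-CSF receptor gene (9.08 and 23.6 rpm), which is a neighbour by position only. Other granule genes of the list had no KO-only region. The primary granule genes Mpo and Elane were marked in all 4 libraries. So were Lcn2, which encodes lipocalin 2 (24.3 and 30.2 rpm at its gene ends in WT, 29.9 and 18.9 in KO), and the neutrophil collagenase gene Mmp8 (44.9 and 50.7 rpm in WT, 45.7 and 52.9 in KO), and Mmp9 was marked in KO1 alone (8.13 rpm). The count would be 9 without WT2, 9 without KO1 and 11 without KO2. Islands at the ends of this list summed to 2315 and 2571 rpm in WT and 3521 and 3075 rpm in KO.

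Of 10 eosinophil genes, 2 were linked. Ear6, an eosinophil ribonuclease gene, had 3 KO-only regions. The strongest, 9.36 kb from the gene, had 51.5 and 60.4 rpm and ranked seventh of the 1800. The one at the start had 12.1 and 8.63 rpm and the third 4.20 and 5.21 rpm. Alox15, a lipoxygenase of eosinophils and macrophages, had 25.4 and 23.7 rpm. Ear6 belongs to a family of near-identical ribonuclease genes, so read placement there is uncertain, and the authors' treatment of such reads is not given in the sources used here. The list, with each island counted once, summed to 271 and 216 rpm in WT and to 669 and 629 rpm in KO. Without Prg2, the major basic protein gene, and its neighbour Prg3, which share islands, it summed to 192.3 and 173.5 rpm in WT and 433.8 and 385.5 rpm in KO. The peroxidase gene Epx stood at 46.4 and 20.6 rpm in WT and 174.6 and 149.3 in KO. Siglecf, a surface lectin gene, stood the other way, with 69.9 and 59.0 rpm in WT and 53.2 and 49.5 in KO, and the groups overlapped at the eotaxin receptor gene Ccr3 (57.2 and 85.1 rpm in WT, 76.3 and 84.8 in KO).

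T and NK cell genes were linked in 2 of 26 cases (7.69%). Klrd1, the CD94 receptor of NK cells, had 42.0 rpm in KO1 and 15.0 in KO2, and Klrb1c, which encodes NK1.1, had 22.8 and 28.9 rpm. The KO libraries differed on this list. KO1 marked 20 of the 26 genes and KO2 12, against 11 and 10 in WT1 and WT2, and Tbx21, Eomes and Prf1 were marked in KO1 (10.7, 21.9 and 8.94 rpm) and at 0 in the other 3. The count of linked genes would be 5 without WT1, 4 without WT2, 4 without KO1 and 11 without KO2. Cd2, an adhesion molecule of T, NK and B cells and on no list, had the fifth strongest region of all, with 53.0 rpm in KO1 and 64.7 in KO2 over 11600 bp at its end.

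Lists of other lineages had few links. None of 31 GATA and erythroid genes, of 17 megakaryocyte genes or of 13 basophil and mast cell genes was linked to a KO-only region. Without WT2, KO1 or KO2 up to 3 megakaryocyte genes, 1 erythroid gene and 2 basophil and mast cell genes would be linked. Erythroid genes summed to 4408 and 5172 rpm in WT and 1709 and 1870 rpm in KO, with 30 and 29 of 31 marked in WT and 18 and 22 in KO, and the part of this difference in the list of KO-only regions was not tested. Stem and progenitor genes were linked in 3 of 23 cases, all at a distance, by regions 131.3 kb from Runx1 (16.9 and 13.2 rpm), 122.3 and 832.4 kb from Myc (11.3 and 9.26 rpm, and 6.91 and 8.63 rpm) and 360.1 kb from Meis1 (7.04 and 7.46 rpm). Without KO1 or KO2 the count would be 6 or 8.

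Of 26 ETS family genes 2 were linked. Ets2 had a region at its end with 18.1 and 30.8 rpm and one 41.6 kb away with 7.79 and 6.11 rpm, and Etv1 had 8.13 and 12.4 rpm. Without WT2, KO1 or KO2 the count would be 5, 5 and 6. The dendritic cell list had 3 of 15 linked, with Irf4 shared with the B cell list, Tcf4 (6.57 and 19.5 rpm) and a region 8.54 kb from Itgax (4.40 and 5.39 rpm). Of 16 stromal and endothelial genes 3 were linked (5 without KO1 or KO2), Alpl (20.9 and 26.7 rpm), Adipoq (8.87 and 13.1 rpm) and Vcam1 (9.55 and 7.91 rpm). The Vcam1 region lay 58.1 kb from the gene and 0.4 kb from a WT acetylation island. The stromal and endothelial list summed to 198 and 312 rpm in WT and 640 and 663 rpm in KO. Without Pecam1 and Vcam1, adhesion molecule genes left out after their values were seen, it summed to 61.9 and 67.97 rpm in WT and 61.5 and 89.1 rpm in KO. Cdh5, Tek, Cxcl12, Col1a1, Lepr and Pdgfra were at 0 in every library. Nfkb1, a subunit of NF-kB, was the sole link among 22 AP-1, NF-kB and interferon genes, with 9.41 and 13.4 rpm, and 2 or 3 genes would be linked without any 1 library.

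**Figure D3:**
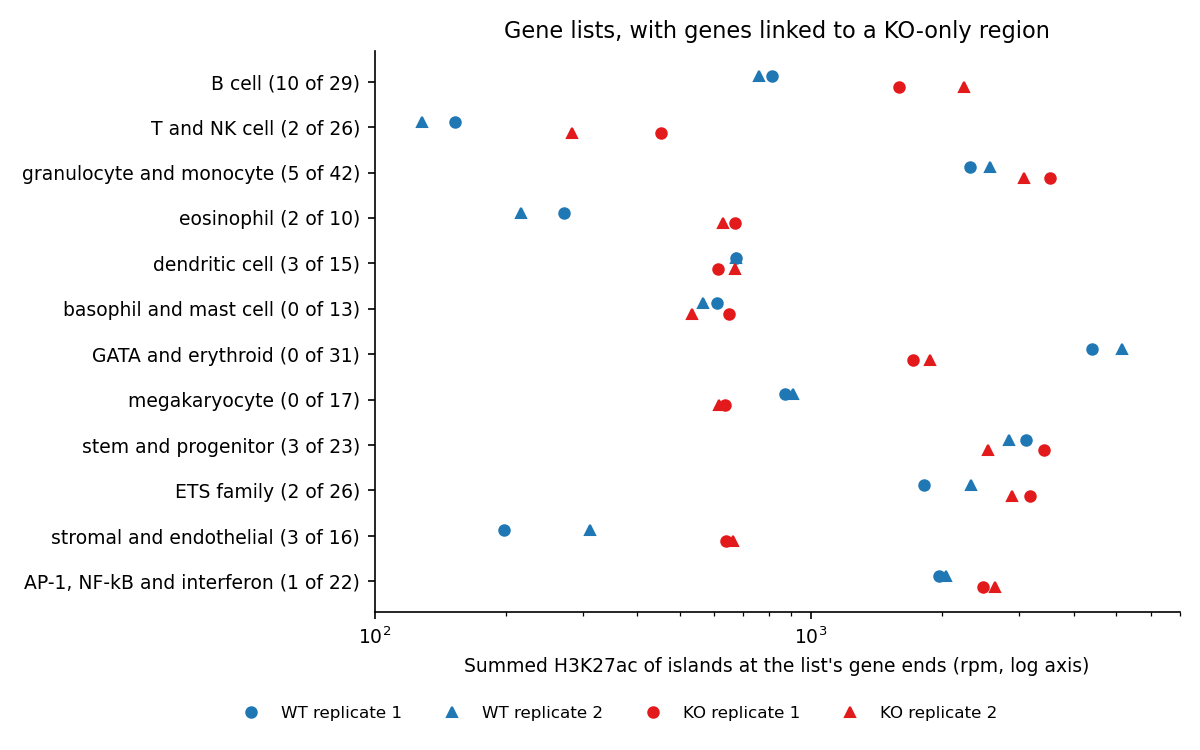
Summed H3K27ac of the islands at the gene ends of each list (horizontal, rpm, log axis) in 2 WT (blue) and 2 KO (red) libraries. The numbers after each name are the genes linked to a KO-only region and the genes of the list. The B cell list has the most linked genes (10 of 29), and the erythroid list has none of 31 and stands lower in KO.

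Outside the lists, the strongest regions away from gene ends lay 12.2 kb from Rtl6, a retrotransposon-derived gene (60.6 rpm in KO1 and 87.8 in KO2), in Cplx2, which encodes a complexin of vesicle fusion (55.1 and 85.5 rpm), and in Wdfy3, an autophagy adaptor gene (53.4 and 64.1 rpm). Zhx2, a zinc finger and homeobox repressor gene, followed with 38.1 and 69.6 rpm. Regions 29.0 kb from Thoc3, an mRNA export gene (37.7 and 63.9 rpm), in the Rac activator gene Elmo1 (43.4 and 54.1 rpm), 29.2 kb from the adrenergic receptor gene Adra2c (33.9 and 55.1 rpm) and in the ceramide synthase gene Cers6 (44.0 and 42.1 rpm) completed the first 10. The widest region of all, 23600 bp, was a second one in Cers6, with 50.5 and 29.4 rpm. Cplx2 and Thoc3 are neighbours on chromosome 13, and their regions lay within 1 locus.

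At gene ends, the regions that followed Pax5 and Cd2 were those of Bst1, which encodes the CD157 ectoenzyme of stromal and myeloid cells (34.1 and 51.4 rpm), Wdr66 (35.1 and 48.8 rpm), the Kelch-like gene Klhl14 (32.4 and 46.8 rpm) and Abhd17c, a depalmitoylase gene (33.5 and 45.05 rpm). Lef1, a nuclear factor of Wnt signalling used in lymphoid progenitors, had 30.1 and 47.5 rpm. Gfra1, a GDNF receptor gene, had 28.2 and 48.5 rpm, Brd1, a scaffold gene of acetyltransferase complexes, had 33.7 and 34.1 rpm over 22400 bp, and Zkscan16 had 25.4 and 40.4 rpm. KO2 was the higher of the KO libraries in each of the 10 strongest at gene ends.

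UTX was rarely found at KO-only regions in wild-type cells. UTX occupancy was taken to need islands in both UTX libraries without one in IgG. This held for 26 of 1800 (1.44%, 95% exact interval 0.946 to 2.11%), against 2.05% of WT-only regions, 38.3% of regions in all 4 libraries and 21.3% of all regions. The single UTX libraries met 4.50% and 4.67% of KO-only regions. The same libraries met 5.08% and 17.5% of WT-only regions and 47.5% and 52.3% of regions in all 4 libraries, so the comparison of KO-only with WT-only regions depended on the UTX library. An IgG island met 5 KO-only regions (0.278%). At gene ends 16 of 322 KO-only regions (4.97%) were occupied, against 5.08% of 532 WT-only regions, 60.5% of 10166 gene-end regions in all 4 libraries and 49.5% of all 12635 gene-end regions. Width and level also differ between the classes, and their part in these shares was not tested.

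The strongest UTX-occupied regions were those of Pax5 (44 and 119 UTX reads) and Klrd1 (48 and 63 UTX reads). Septin5, a septin gene, followed with 17.3 and 19.2 rpm of H3K27ac and 31 and 60 UTX reads, and Hs3st3b1, a heparan sulphate sulphotransferase gene, had 19.6 and 12.0 rpm and 64 and 94 UTX reads. The other 6 of the first 10 lay near Agps, Agap1, Srgap1, Ptp4a3, Plxdc2 and Sec22c, with 7.32 to 10.8 rpm in KO1 and 9.17 to 13.3 rpm in KO2. No UTX island met the strongest region, after Ebf1.

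**Figure D4:**
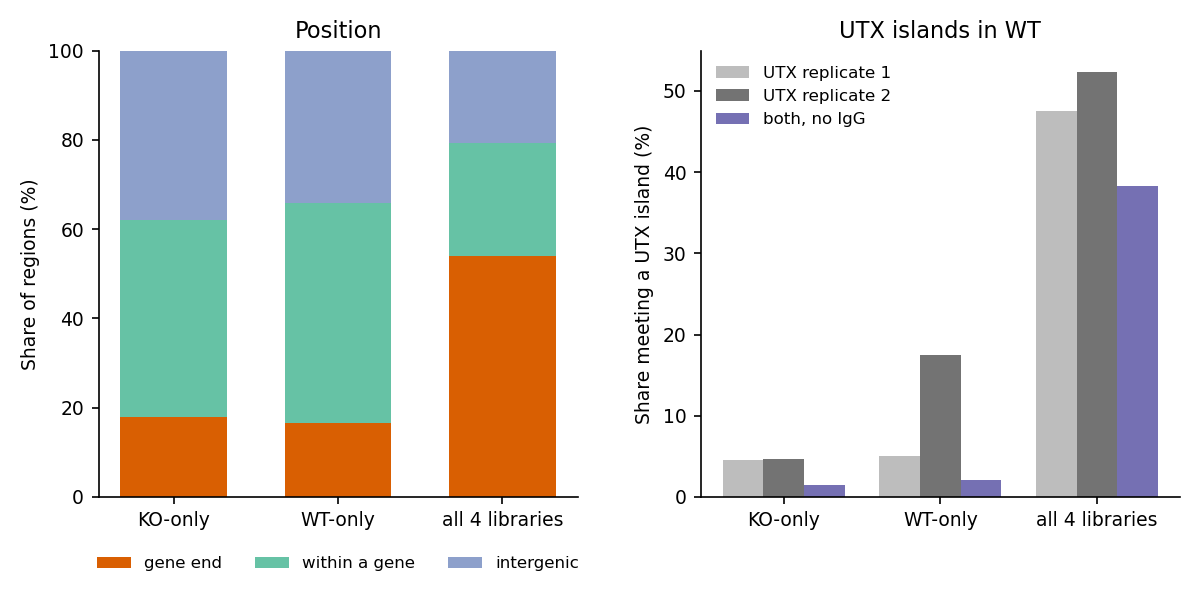
Left, share of KO-only, WT-only and all-library H3K27ac regions (vertical, %) at gene ends, within genes and between genes. Right, share of the same classes (vertical, %) that met an island of UTX replicate 1, of UTX replicate 2, or of both with no IgG island. Of KO-only regions 17.9% are at gene ends and 1.44% UTX-occupied, against 54.0% and 38.3% of regions in all 4 libraries.

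H3K27me3 was read in libraries that the rule did not use. It met KO-only regions more often in WT than in KO cells, with 12.6% and 11.6% of the regions in WT1 and WT2 and 8.17% and 9.39% in KO1 and KO2. The means were 12.1% ± 0.746 and 8.78% ± 0.864 (SD, n = 2 each), a difference of -3.31 percentage points (exact permutation test over libraries, two-sided, p = 0.333, the smallest that 2 against 2 allows). The groups did not overlap. The KO libraries also had fewer H3K27me3 islands, 15743 and 14665 against 18847 and 20412 in WT, a ratio of 0.775, beside a ratio of 0.726 at the KO-only regions. With every H3K27me3 list limited to its 14665 strongest islands the shares were 11.9% and 11.1% in WT and 8.06% and 9.39% in KO.

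WT-only regions stood the other way, with 7.22% and 7.44% in WT and 8.65% and 8.52% in KO. With lists of equal length these shares were 6.57% and 6.35% in WT and 8.46% and 8.52% in KO. The gap between KO-only and WT-only regions was 5.39 and 4.12 points in WT1 and WT2 and -0.482 and 0.864 points in KO1 and KO2, a difference of -4.56 points (exact permutation test, p = 0.333, again the smallest possible). Regions in all 4 libraries met H3K27me3 in 7.17% and 8.70% in WT and 5.72% and 6.79% in KO, a ratio of 0.788. The gap between KO-only regions and these was 5.44 and 2.86 points in WT and 2.45 and 2.60 in KO, so its groups did not overlap either, by a margin smaller than the WT spread.

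The mark was most frequent at the 322 KO-only regions at gene ends, where it met 37.9% and 38.5% in WT and 27.3% and 32.9% in KO. At gene ends of WT-only regions the shares were 20.9% and 20.7% in WT and 23.5% and 23.1% in KO, and at those of regions in all 4 libraries 9.89% and 12.2%, and 7.62% and 9.35%. Within genes KO-only regions had 7.54% and 6.41% in WT and 4.65% and 5.15% in KO, and between genes 6.60% and 4.84% in WT and 3.23% in both KO libraries. Most KO-only regions, 1522 of 1800, met no H3K27me3 island in any library, and 117 (6.50%) met one in all 4.

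**Figure D5:**
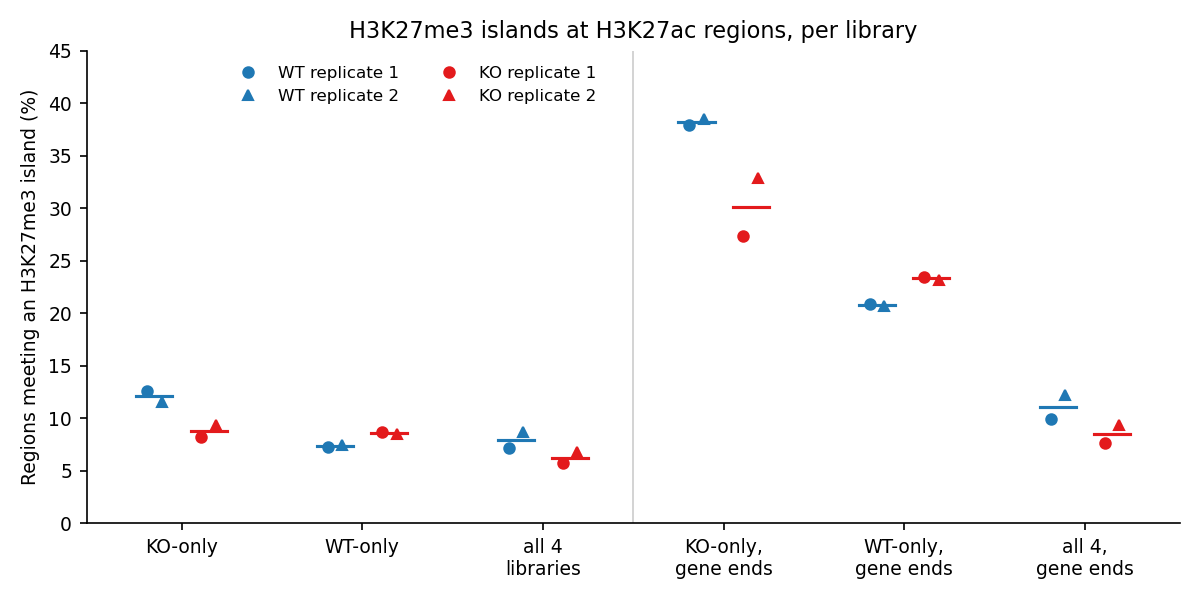
Share of H3K27ac regions that met an H3K27me3 island (vertical, %) in each of 4 H3K27me3 libraries, for KO-only, WT-only and all-library regions at all positions (left) and at gene ends (right). Points are libraries and bars are means of 2. KO-only regions are lower in KO (8.17% and 9.39%) than in WT (12.6% and 11.6%), and WT-only regions higher.

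An H3K27me3 island was present in both WT and neither KO library at 24 KO-only regions (1.33%, against 0.874% of all merged H3K27ac regions), and the reverse was seen at 0 (against 0.351% of all). The strongest of the 24 was the region after Ebf1, with 56 H3K27me3 reads in each WT library, or 20.4 and 22.8 rpm. These WT islands did not overlap each other. That of WT1 lay 901.3 to 904.7 kb after the Ebf1 start and that of WT2 914.7 to 918.7 kb after it. Read numbers here are those of whole islands, which may extend beyond the acetylated region. At Dcbld1, a neuropilin-like membrane protein gene, WT islands of 207 and 160 reads met the gene-end region, which carried 14.5 and 18.2 rpm of H3K27ac in KO. Others lay near Csf3r (534 and 291 reads), Rpl11 (102 and 321), Tnnt2, the cardiac troponin T gene (308 and 23), Cplx2 (81 and 50), Ttll7 (78 and 65), Hmgcll1 (84 and 52) and Cecr2, where 1 pair of islands (99 and 45) met 2 regions. The islands near Cplx2, Rpl11, Csf3r and Tnnt2 belonged to longer H3K27me3 stretches that also had KO islands, outside the acetylated region.

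Those longer stretches were tested as 6771 H3K27me3 regions with islands in all 4 libraries, with edgeR's quasi-likelihood test. Over all of them, 1 was lower in KO (0.0148%) and 0 were higher (0.00%), 517 reached an unadjusted p under 0.05, and DESeq2 called 16 higher and 17 lower. In simulation, 20 of 100 regions changed 2-fold and 97 of 100 changed 4-fold were recovered, so changes of 2-fold or less were mostly not detectable with these libraries. Without KO2 edgeR called 1 higher and 6 lower. KO-only H3K27ac regions met 150 of the tested stretches, and edgeR called 0 of them, also without any 1 library. Their median log2 fold change was -0.16, against 0.00 over all tested, and 108 (72.0%) were negative, against 50.2% of all. At an unadjusted p under 0.05 there were 13 lower and 2 higher. The 198 stretches that met WT-only regions had a median of 0.17.

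At named genes no stretch passed the edgeR test. Pax5 kept a broad H3K27me3 stretch, with 762.8 and 944.7 CPM in WT1 and WT2 and 724.4 and 700.9 in KO1 and KO2 (log2 fold change -0.26, SE 0.152, edgeR adjusted p = 0.733). Islands of both marks met its start in both KO libraries. The stretch at the start of Ebf1 had 355.3 and 437.8 CPM in WT and 303.4 and 297.2 in KO (-0.40, SE 0.172, adjusted p = 0.621), and that near Csf3r 461.7 and 315.4 CPM in WT and 237.3 and 256.6 in KO (-0.65, SE 0.206, adjusted p = 0.475). Hs3st3b1 had 269.2 and 392.3 CPM in WT and 175.4 and 229.7 in KO (-0.71, SE 0.229, adjusted p = 0.495). Bach2 stood the other way, with 76.6 and 44.5 CPM in WT and 121.8 and 98.3 in KO (0.86, SE 0.385, adjusted p = 0.639). The WT and KO values of Pax5, Ebf1, Csf3r, Hs3st3b1 and Bach2 did not overlap. Nor did those of other named genes, among them Septin5, Rpl11, Tnnt2, Adra2c, Gfra1, Alpl and Alox15, all lower in KO. The values overlapped at Lef1 (297.0 and 426.3 CPM in WT, 283.3 and 330.9 in KO) and Cplx2 (134.8 and 107.8 in WT, 115.1 and 79.7 in KO), among others. The share of all tested stretches without overlap was not counted, so the separation is a description.

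The stretch with the smallest p among the 150 lay at Grb7, an adaptor gene of receptor tyrosine kinases (chosen after its values were seen). It had 196.0 and 158.0 CPM in WT and 53.7 and 86.0 in KO (log2 fold change -1.34, SE 0.319, edgeR adjusted p = 0.359). DESeq2 called it lower (adjusted p = 0.0435). The KO-only acetylated region there had 7.79 and 16.2 rpm.

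Acetylated regions that were present in all libraries near KO-only regions were, on the whole, higher in KO. The nearest such regions numbered 1489, with a median log2 fold change of 0.20 (KO over WT), against 0.00 over all 18820, and 66.4% were positive, against 50.0%. By edgeR 22.9% were called higher, against a background of 12.0%, and 7.92% lower, against 14.0%. Within 10 kb of a KO-only region the median was 0.28 and 31.3% were called higher. Beyond 100 kb it was 0.12 and 14.6%. These values come from the same libraries as the rule and are a description.

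Among the named genes, the nearest shared region to Irf4 stood at 6.94 and 9.71 CPM in WT and 34.7 and 49.2 in KO. That near Lmo4, which encodes a LIM-only cofactor, stood at 8.35 and 21.2 CPM in WT and 68.8 and 93.2 in KO, and that near Lef1 at 6.35 and 3.80 in WT and 20.9 and 23.5 in KO. The reverse was also seen, as 51.4 kb from the Cd2 region, where the shared region stood at 76.9 and 88.5 CPM in WT and 10.8 and 17.7 in KO. Others that stood lower in KO were those nearest to the Klhl14 region (24.6 and 37.1 CPM in WT, 6.41 and 8.91 in KO) and to the region 3.9 kb before Ebf1. The latter lay 58.2 kb away and stood at 247.2 and 335.2 CPM in WT and 121.8 and 140.8 in KO.

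Of 1005 RefSeq miRNA hairpins, 8 lay in KO-only regions. Mir155, a microRNA of activated lymphoid and myeloid cells, lay in a region with 7.11 rpm in KO1 and 4.86 in KO2 that met no H3K27me3 island. Mir152 lay in a region at the end of Copz2 with 6.77 and 5.13 rpm, which met H3K27me3 islands in both WT and neither KO library. Their mature forms are shown because they are the ones with a named role or with both marks, with the seed (bases 2 to 8) in capitals, and none of the 4 shares a seed with another.
mmu-miR-155-5p: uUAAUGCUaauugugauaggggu
mmu-miR-155-3p: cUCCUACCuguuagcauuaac
mmu-miR-152-5p: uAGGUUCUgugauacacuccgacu
mmu-miR-152-3p: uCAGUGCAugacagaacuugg
The strongest region among those whose hairpin has a mature form in the table was that of Mir7008 in Prkci, with 23.5 and 25.5 rpm. The acetylation of a region that holds a hairpin does not measure the miRNA itself.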

How the data were processed

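Lineage-depleted bone marrow cells of WT and Utx-/- mice were profiled by ChIP-seq, and 11 of the 14 samples had island files that were used. Per the submitters' processing notes, islands were called with SICER on mouse build mm10; the version, aligner, gap, threshold, control and handling of multiply placed reads are not given in the sources used here. The deposited files hold the authors' counts of reads, 1 whole number for each island of a library. Island widths were multiples of 200 bp. Islands outside chromosomes 1 to 19, X and Y were left out (0.0134 to 18.4% of the reads of a library).

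From these, islands of the 4 H3K27ac libraries were merged (at least 1 bp shared), regions were classed by the libraries with an island, and rpm was taken over all island reads of a library. A library without an island has no count, so no fold against it is given. Exact binomial intervals (95%) cover counting error only. H3K27me3 islands were merged likewise. The quasi-likelihood test of edgeR 4.0.16 (R 4.3.3, TMM scaling, two-sided, Benjamini-Hochberg threshold 0.05) was run on regions with an island in every library of the mark; DESeq2 1.42.0 was an alternative. CPM values are those of edgeR over tested regions, and SE was taken from the F statistic. On simulated data the H3K27ac fit recovered 78 of 100 regions changed 2-fold (18820 regions). Shares per library were compared by exact permutation (scipy 1.17.1).

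Genes, promoters and miRNAs came from RefSeq tables of GRCm38.p6, the assembly of mm10. The gene table has no strand, so both gene ends were used. Of 262 distinct listed genes, 1 was not matched. Named genes are those nearest to the 10 strongest regions at gene ends and the 10 elsewhere, the 5 widest, the 10 strongest UTX-occupied, the 10 strongest with H3K27me3 in both WT and neither KO library, the 3 weakest, the 3 just outside the rule, and every listed gene with a region. The regions, lists and tests were chosen with earlier results of these data known. Alternatives covered merging, island strength, list lengths, windows, single libraries, autosomes, scaling and the replicate block.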

Additional observations from a re-analysis of the deposited data

How the results depend on the processing

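The number of KO-only regions was 1623 when gaps of up to 1 kb were merged, 2351 with equal list lengths and 1757 on autosomes, and 646 with islands at or above the median reads per kb of their library. The latter met 114 of the 1800 (6.33%), and equal list lengths met 1443 (80.2%). Leaving out a library gave 2197 to 4292. The UTX-occupied share was 7.72% with 1 UTX library enough, and 4.50 to 4.67% without a UTX library. The share at gene ends was 15.6% with windows of 1 kb, 25.1% with 5 kb, 30.9% with all annotated genes, 20.7% with equal list lengths and 8.39% with starts only, an alternative chosen after seeing the data. The H3K27me3 difference kept its sign in each setting run, between -5.44 (region widened by 5 kb) and -2.58 points, and from -3.92 to -2.69 without 1 library. H3K27me3 calls numbered 33 with DESeq2, and 0 with total-read scaling, with islands in at least 2 libraries, at 50 or more reads and under the replicate block, and 0 to 7 without 1 library. The WT and KO replicate differences were nearly uncorrelated over 6771 H3K27me3 regions (r = -0.0523). This cannot show whether same-numbered libraries were prepared together, and the H3K27ac libraries were not checked in this way. The replicate block gave the share difference an exact permutation p of 0.5 over 2 pairs. B cell genes linked numbered 10 or 11 with equal list lengths and without each H3K27ac library in turn. Leaving out a library loosens the rule and kept all 1800 regions, so the count could hardly fall there. The lists were not counted with islands at or above the median reads per kb. The other lists moved by more than 1.5 times in 30 of 55 settings, and smaller counts reach that ratio more easily. The cause of these changes was not tested. Islands alone, and 2 libraries a group, limit every result: no exact test of 2 against 2 can go below 0.333, and 2-fold H3K27me3 changes were rarely recovered in simulation.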

Other observations

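Some genes that stood on none of the lists were nearest to many KO-only regions. Those with 5 such regions were Lmo4, Nucb2, Stt3b, Itpr2 and Elmo1, chosen after the counts were seen. The regions of Lmo4, a LIM-only cofactor of developmental regulators, all lay in intergenic DNA, and the strongest, 171.7 kb away, had 26.4 rpm in KO1 and 33.0 in KO2. Those of Stt3b, a subunit of the oligosaccharyltransferase, were also intergenic, with 18.8 and 17.8 rpm in the strongest. Nucb2, which encodes the precursor of nesfatin, had 11.04 and 20.1 rpm in its strongest, 159.0 kb away. At Itpr2, a receptor that releases calcium, 4 of 5 regions lay within the gene and the strongest, intergenic one had 12.8 and 16.7 rpm. All 5 regions of Elmo1 lay within the gene, and the weakest had 7.38 and 6.56 rpm. WT acetylation islands lay between 1 kb (Elmo1 and Stt3b) and 385.2 kb (Nucb2) from these regions.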
